A study of Mus musculus with 6 samples.

Results

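Gusb and 7 further genes for lysosomal enzymes that take glycosaminoglycans apart were followed in mouse embryonic stem cells of 3 genotypes. The 8 genes, Gusb, Hexa, Idua, Ids, Sgsh, Naglu, Glb1 and Arsb, were picked by symbol from the 19713 genes of the expression table. All 8 were present, and all 8 were among the 15287 genes tested, that is, those reaching a normalized count of 10 in 2 or more libraries. RNA sequencing libraries were made from wild-type cells (WT), from cells homozygous for the C54Y change in THAP1 (Thap1 C54Y/C54Y, here C54Y) and from THAP1 -/- cells that carry Thap1 ΔExon2 (here KO). Every line came from C57Bl/6 blastocysts and was kept on gelatin and irradiated mouse embryonic fibroblast feeders, with serum and leukemia inhibitory factor at 1000 units/ml. Each genotype has 2 libraries, numbered replicate 1 and replicate 2. Nothing in the labels says whether the libraries of a genotype are separate clones or cultures, so p-values measure only the spread between these samples, which may be technical.

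Glycosaminoglycans are long, often sulfated sugar chains: heparan, dermatan, chondroitin and keratan sulfate, and hyaluronan. In the lysosome they are degraded from the non-reducing end by exoglycosidases and sulfatases that act in turn, so that loss of any enzyme stops the chain at that step and the undegraded chain accumulates. Inherited loss of most of these enzymes causes the mucopolysaccharidoses, and loss of HEXA causes Tay-Sachs disease. GUSB, β-glucuronidase, removes terminal glucuronic acid from several of these chains, and its transcript is also a common internal reference in quantitative PCR. THAP1 is a zinc finger transcription factor that is mutated in an inherited form of dystonia, and C54Y changes a cysteine in its DNA-binding domain.

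The promoters of 4 of the genes are shown because they carry the contrast described below: Gusb was lower in both mutants, Naglu was lower in KO, Glb1 did not fall, and Idua holds the sequence that THAP1 is known to recognise. All 8 genes were matched by symbol in RefSeq, build GRCm38.p6. Each stretch runs from 250 bases before to 50 bases after the annotated start, 5′ to 3′ on the gene's own strand. Capitals mark the motif found, CACGTG in Naglu and Glb1 and TNNGGGCA in Idua, and Gusb held none of the motifs searched.
Gusb, chr5:130003000-130003299, minus strand: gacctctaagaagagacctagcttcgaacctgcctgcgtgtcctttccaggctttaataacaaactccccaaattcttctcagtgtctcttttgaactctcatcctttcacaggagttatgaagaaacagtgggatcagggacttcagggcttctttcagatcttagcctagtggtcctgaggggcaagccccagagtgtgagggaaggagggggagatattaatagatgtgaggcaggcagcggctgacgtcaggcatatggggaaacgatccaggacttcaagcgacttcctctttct
Naglu, chr11:101069844-101070143, plus strand: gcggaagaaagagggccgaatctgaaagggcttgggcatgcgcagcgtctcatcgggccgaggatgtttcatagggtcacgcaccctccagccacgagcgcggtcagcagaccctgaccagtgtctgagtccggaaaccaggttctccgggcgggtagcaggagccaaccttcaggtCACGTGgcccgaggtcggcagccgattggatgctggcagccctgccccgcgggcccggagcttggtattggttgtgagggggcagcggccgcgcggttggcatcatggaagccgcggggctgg
Glb1, chr9:114400828-114401127, plus strand: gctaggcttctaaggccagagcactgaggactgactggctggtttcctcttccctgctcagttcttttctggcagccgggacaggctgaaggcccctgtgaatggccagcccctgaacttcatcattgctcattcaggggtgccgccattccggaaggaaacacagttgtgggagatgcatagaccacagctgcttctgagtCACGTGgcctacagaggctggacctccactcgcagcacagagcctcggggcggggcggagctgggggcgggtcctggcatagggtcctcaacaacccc
Idua, chr5:108660081-108660380, plus strand: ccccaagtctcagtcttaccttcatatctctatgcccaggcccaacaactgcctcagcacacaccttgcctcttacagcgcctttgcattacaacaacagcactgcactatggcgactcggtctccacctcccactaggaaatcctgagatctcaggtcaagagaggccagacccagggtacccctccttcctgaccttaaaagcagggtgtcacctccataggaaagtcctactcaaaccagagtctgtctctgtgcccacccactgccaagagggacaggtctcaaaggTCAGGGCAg

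The 3 motifs were searched on both strands of these 300-base windows: TNNGGGCA, the consensus bound by the THAP1 zinc finger, CACGTG, the E-box core read by the MiT factors that drive lysosomal genes, and CCATNTT, the core bound by YY1. These motifs share no overlapping match in the 8 windows. TNNGGGCA lay in 1 of the 8, Idua, as TCAGGGCA at position 42 after the start, and in 13.9% of all 32851 RefSeq promoters. CACGTG lay in 3 of the 8, 29 bases before the start in Sgsh, 48 in Glb1 and 73 in Naglu, and in 7.15% of all promoters. CCATNTT lay in Hexa and Ids, and in 16.1% of all promoters. The Gusb and Arsb windows held none of the 3 motifs, which says only that these letters are not in these windows. GC content of the windows ran from 49.7% in Gusb to 67.0% in Sgsh, against a median of 52.7% over all promoters.

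Values are normalized counts, reads per gene divided by a size factor for each library. Library depth ranged from 31774656 to 46772996 reads. The libraries differed strongly by replicate number: 64.9% of tested genes differed between replicate 2 and replicate 1 at an adjusted p under 0.05. Deviations of same-numbered libraries from their genotype means correlated at 0.869 to 0.907, so the genotypes were compared within replicate number, with the number as a block in limma on log2(normalized count + 2). Fold changes (log2) and errors below come from that fit, and its adjusted p-values are over all 15287 genes by the Benjamini-Hochberg method. Without the block, limma called 0 genes in every comparison between genotypes (1049 had an unadjusted p under 0.05 for KO and 252 for C54Y against WT), so each call named below is lost in that fit. The targeted gene, Thap1, had 433 and 701 normalized counts in WT, against 2253 and 2533 in C54Y and 1975 and 1687 in KO. Its counts over the whole gene were thus higher in both mutants (log2 difference 2.11 ± 0.22 SE, adjusted p = 0.00301 for C54Y, and 1.72 ± 0.22, adjusted p = 0.0018 for KO). Reads summed over all exons cannot check either label, since C54Y alters 1 residue and ΔExon2 leaves the other exons.

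Gusb was the member with the clearest change. Its normalized counts were 1323 and 1835 in WT, against 285 and 542 in C54Y and 291 and 442 in KO, in replicates 1 and 2. Every mutant library lay below both WT libraries. Within replicate number, Gusb stood at 21.5% and 29.5% of WT in C54Y, and at 22.0% and 24.1% of WT in KO. Group means were 1579 ± 362 in WT, 413 ± 182 in C54Y and 366 ± 107 in KO (SD, n = 2). It fell by 2.11 ± 0.19 (SE) on the log2 scale in KO (95% interval -2.55 to -1.68, limma adjusted p = 0.00047) and its difference was -1.98 ± 0.19 in C54Y (-2.42 to -1.54, adjusted p = 0.00232). The fall exceeded the spread within replicate number by this fit, whereas without the block the adjusted p was 0.587 for KO and 1.00 for C54Y (unadjusted p = 0.00749 and 0.00974). An exact two-sided permutation test over 2 against 2 libraries gave 0.333 in either comparison, the smallest p that 6 arrangements allow. The summed normalized count of 12 endoderm markers was also lower in all 4 mutant libraries, at 9795 to 11723, than in WT, at 17711 and 26410. Lamb1 and Lama1 made up most of the 26410 in WT replicate 1, at 13774 and 8863. Their log2 differences in KO were -0.82 and -0.84, against a median of -2.29 over the 10 tested markers. The part of these markers in the result for Gusb was not tested. In bulk RNA, fewer cells of a type and less RNA per cell cannot be told apart.

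KO and C54Y share the same WT libraries, so these falls are not independent of each other. Between the mutants themselves, Gusb differed by -0.13 ± 0.19 on the log2 scale (KO minus C54Y, 95% interval -0.57 to 0.31, adjusted p = 0.795). The interval leaves room for a level in KO either above or below that in C54Y, and KO was higher than C54Y in replicate 1 and lower in replicate 2.

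**Figure D1:**
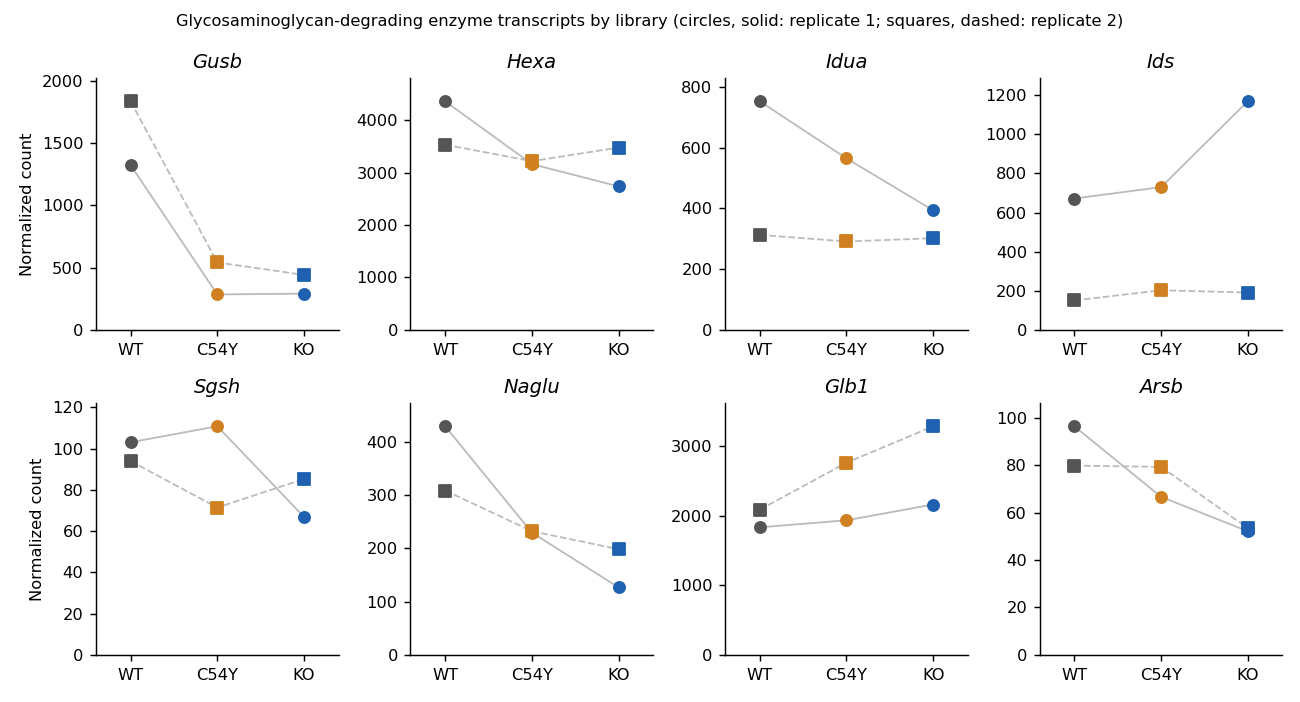
Normalized count of each of the 8 genes in WT, C54Y and KO, 1 panel per gene with its own linear axis from 0; circles joined by solid lines are replicate 1 and squares joined by dashed lines replicate 2. Gusb has its WT libraries at 1323 and 1835 and all 4 mutant libraries between 285 and 542, whereas for Ids the 3 circles all lie above the 3 squares.

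Naglu, N-acetyl-α-glucosaminidase, which removes terminal N-acetylglucosamine from heparan sulfate, was the other member called. It had 430 and 309 normalized counts in WT, against 230 and 233 in C54Y and 127 and 199 in KO. WT was highest and KO lowest in both replicates, with no overlap between any pair of genotypes. It fell by 1.19 ± 0.29 (SE, log2) in KO, to 29.5% of WT in replicate 1 and 64.3% in replicate 2 (limma adjusted p = 0.0254, and 0.687 without the block). The call was lost without WT replicate 1, where the difference was -0.79 with adjusted p = 0.217. In C54Y the difference was -0.65 ± 0.29 (adjusted p = 0.41). The same difference passed the threshold when only C54Y and WT libraries were fitted (limma adjusted p = 0.0274) or when either KO library was left out. Such fits leave little spread of their own, so their p-values rest mostly on the spread pooled over all genes. A call gained in them, here and below, is not added evidence.

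The count over the 8 genes was thus 2 lower and 0 higher in KO, where 16.3% of all tested genes were called, 7.41% lower and 8.9% higher. In C54Y it was 1 lower, Gusb, and 0 higher, where 1.36% of all tested genes were called, 0.399% lower and 0.962% higher. No member was called between KO and C54Y, where 0.19% of tested genes were, 0.144% lower and 0.0458% higher in KO. Limma with the block gave 0 of 8, 0 had an unadjusted p under 0.05, and edgeR and DESeq2 with the block also gave 0. Differences between the mutants ran from -0.54 to 0.30 over the 8 genes (adjusted p from 0.418 to 0.926), and without KO replicate 2 Naglu passed the threshold (-0.97, adjusted p = 0.0145). By the libraries alone, 5 members (Gusb, Hexa, Sgsh, Naglu and Arsb) had both KO libraries below both WT libraries, as did 13.6% of tested genes, and Glb1 had both above, as did 13.6%. In C54Y, 4 members (Gusb, Hexa, Naglu and Arsb) lay below WT in this way, as did 8.69% of tested genes, and 0 lay above, against 9.3%. Naglu and Arsb had both KO libraries below both C54Y libraries, as did 8.84% of tested genes, and 0 members had both above, against 8.64%. The median log2 difference of the 8 genes was -0.43 in KO and -0.26 in C54Y, against 0.03 and -0.00 over all tested genes. Leaving out a library moved the number of members called in KO to between 1 and 5 and in C54Y to between 1 and 2 with the block, as described below for each gene.

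**Figure D2:**
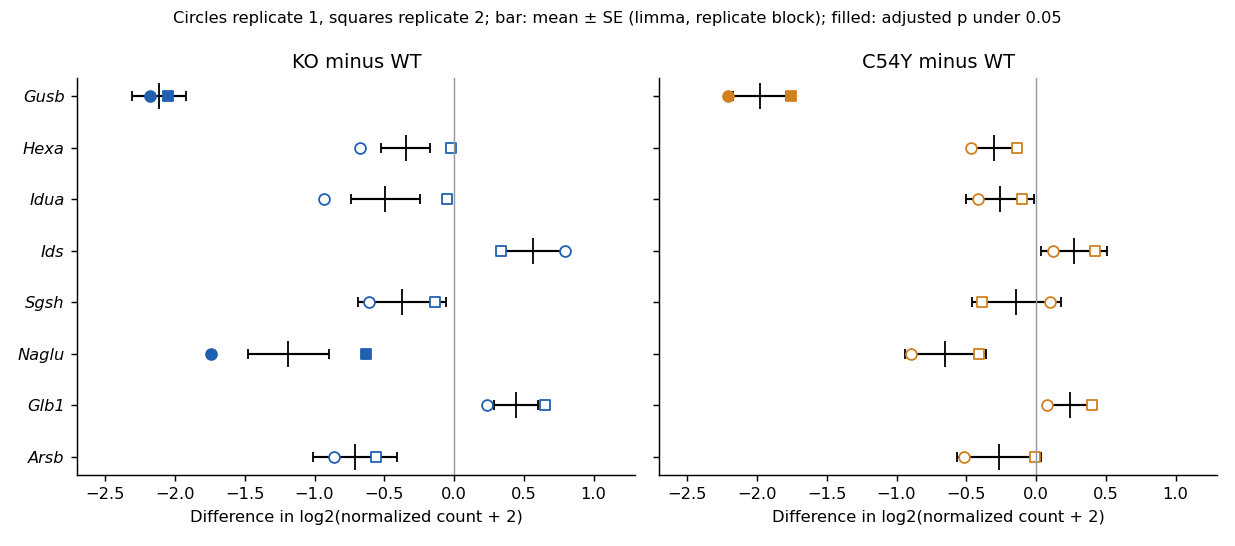
Difference from WT in log2(normalized count + 2) of each of the 8 genes in KO and C54Y, within replicate 1 (circles) and replicate 2 (squares), with the mean ± SE from limma with the replicate block as a bar and called genes filled. Gusb has means of -2.11 and -1.98, Naglu of -1.19 and -0.65, and the other 6 genes lie between -0.71 and 0.57.

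Among the other exoglycosidases, Hexa, Idua and Glb1 did not pass the test in either mutant. Hexa, the α subunit of β-hexosaminidase, had 4359 and 3532 normalized counts in WT, against 3162 and 3218 in C54Y and 2737 and 3477 in KO. Both mutants lay below WT in each replicate, but in replicate 2 KO was at 98.4% of WT. The log2 difference was -0.35 ± 0.17 in KO (adjusted p = 0.214), with -0.30 ± 0.17 in C54Y (adjusted p = 0.57).

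Idua, α-L-iduronidase, which removes iduronic acid from dermatan and heparan sulfate, had 752 and 313 normalized counts in WT, against 564 and 291 in C54Y and 393 and 302 in KO. The genotypes overlapped, and the spread between replicate numbers exceeded that between genotypes. Its log2 difference was -0.49 ± 0.25 in KO (adjusted p = 0.213), with -0.26 ± 0.25 in C54Y (adjusted p = 0.781). In GENCODE M21 its exons share 124 bases with Dgkq and 141 with Slc26a1, both on the opposite strand, and the strand setting of the counting is not given in the sources used here, so reads from these stretches cannot be assigned to either gene with certainty. Dgkq differed by 0.21 in KO (adjusted p = 0.503) and Slc26a1 by 0.92 (adjusted p = 0.224). In C54Y, Dgkq differed by 0.14 (adjusted p = 0.865) and Slc26a1, at 2.57 to 23.1 normalized counts over all libraries, by 1.97 ± 0.47 (adjusted p = 0.0951). Slc26a1 passed in C54Y when only C54Y and WT were fitted (0.017) or without KO replicate 1 (0.0169) or 2 (0.0181).

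Glb1, the lysosomal β-galactosidase, which acts on keratan sulfate and on ganglioside GM1, had its highest values in KO. It had 1833 and 2087 normalized counts in WT, against 1934 and 2762 in C54Y and 2161 and 3285 in KO. Both KO libraries lay above both WT libraries, while C54Y replicate 1 fell between the WT libraries. The log2 difference was 0.45 ± 0.16 in KO (95% interval 0.09 to 0.80, adjusted p = 0.0906), and it passed the threshold without KO replicate 1 (0.57, adjusted p = 0.00335). In C54Y it was 0.24 ± 0.16 (adjusted p = 0.642). Glb1 shares 165 exon bases with Tmppe on the same strand, and Tmppe differed by 0.65 in KO (adjusted p = 0.0569), which passed with DESeq2 (0.0258) and without KO replicate 2 (6.45e-05).

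None of the 3 sulfatases passed the test in either mutant. Ids, iduronate 2-sulfatase, which is on chromosome X, had 672 and 151 normalized counts in WT, against 730 and 203 in C54Y and 1168 and 191 in KO. Each mutant library was above WT of the same number, while every replicate 2 library was below every replicate 1 library. Its log2 difference was 0.57 ± 0.24 in KO (adjusted p = 0.139), with 0.27 ± 0.24 in C54Y (adjusted p = 0.751).

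Arsb, arylsulfatase B, which removes sulfate from N-acetylgalactosamine of dermatan and chondroitin sulfate, had 96.4 and 79.8 normalized counts in WT, against 66.6 and 79.2 in C54Y and 52.1 and 53.5 in KO. Both KO libraries were below all others. The log2 difference was -0.71 ± 0.30 in KO (95% interval -1.39 to -0.03, adjusted p = 0.145), with -0.26 ± 0.30 in C54Y (adjusted p = 0.829). A long non-coding RNA on the opposite strand, Gm26527, covers 1948 bases or 32.3% of the exon bases of Arsb.

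Sgsh, heparan N-sulfatase, had 103 and 93.9 normalized counts in WT, against 111 and 71.4 in C54Y and 66.9 and 85.3 in KO, with overlap between WT and C54Y. Its log2 difference was -0.37 ± 0.32 in KO (adjusted p = 0.47), with -0.14 ± 0.32 in C54Y (adjusted p = 0.927). Its exons share 955 bases, or 21.6%, with Card14 on the opposite strand, and those of Hexa share 255 with Tmem202, neither of which was tested. Sgsh and Arsb are the members with the fewest reads, and their intervals are among the widest of the 8. Without KO replicate 2, Hexa, Idua and Ids passed the threshold in KO (log2 differences -0.59, -0.85 and 0.87, adjusted p = 0.00316, 0.00461 and 0.00356).

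Between replicate numbers, limma with the block called 4 of the 8 genes, 2 up and 2 down, against 32% and 32.8% of all tested genes. Ids fell by 2.19 ± 0.19 on the log2 scale from replicate 1 to replicate 2 libraries (limma adjusted p = 1.29e-05), to between 16.3% and 27.8% of the replicate 1 value within a genotype. Idua fell by 0.86 ± 0.20 (adjusted p = 0.00448). Gusb rose by 0.66 ± 0.16 (adjusted p = 0.00503), with replicate 2 at 1.39 times replicate 1 in WT, 1.90 times in C54Y and 1.52 times in KO. That call was lost without C54Y replicate 1 (adjusted p = 0.0758) or 2 (0.0803). Glb1 rose by 0.43 ± 0.13 (adjusted p = 0.0154), a call lost with edgeR (0.33, adjusted p = 0.056), with TMM factors (0.33, adjusted p = 0.0542), and without C54Y replicate 1 (adjusted p = 0.125) or 2 (0.137). What a replicate number stands for is not stated in the labels. The other 4 genes differed by -0.14 to 0.06.

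Levels can be compared between genes only per length, here as RPKM over merged GENCODE M21 exons (reads scaled by exon length and library total). In WT the order was Hexa at 56.2 ± 19.4 (SD, n = 2), Glb1 at 18.1 ± 2.02, Gusb at 9.51 ± 0.26, Naglu at 3.98 ± 1.69, Idua at 3.76 ± 2.79, Ids at 2.46 ± 2.48, Sgsh at 0.630 ± 0.168 and Arsb at 0.414 ± 0.137. The first 3 were separated from each other and from the rest, whereas each later neighbour overlapped the next. In the mutants Gusb held rank 5, at a level of 2.43 ± 0.65 in C54Y and 1.99 ± 0.25 in KO. There its range overlapped that of Ids and of Idua, and in C54Y that of Naglu too, so the ranks 3 to 5 are not distinct.

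**Figure D3:**
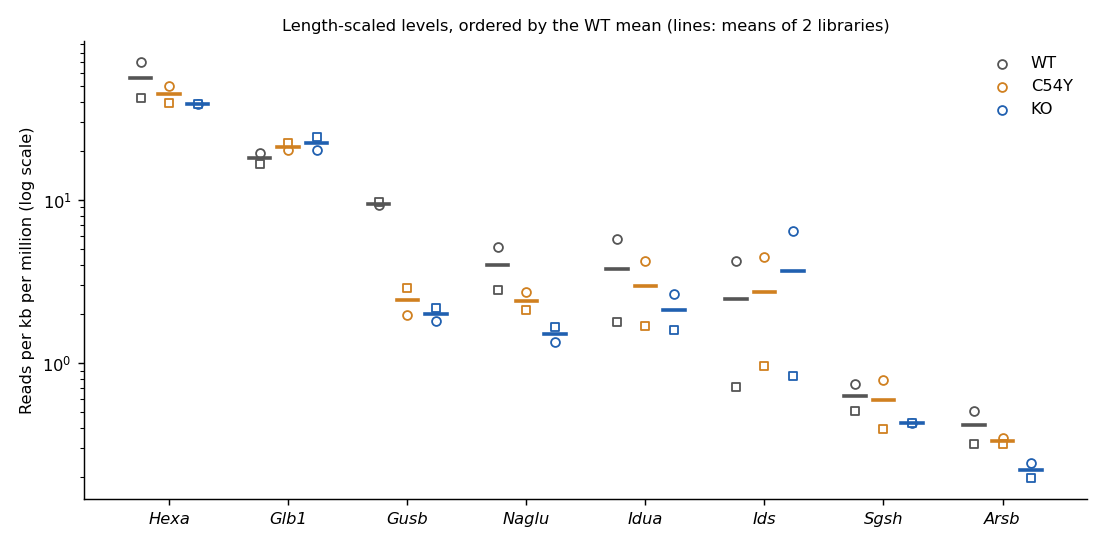
Level of each of the 8 genes in RPKM on a log axis, ordered by the WT mean, with circles for replicate 1, squares for replicate 2 and lines for the mean of the 2 libraries of a genotype. Gusb goes from a mean of 9.51 in WT, rank 3 of the 8, to 2.43 in C54Y and 1.99 in KO, amid the values of Idua, Ids and Naglu.

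The 5 genes whose differences from WT were most like those of Gusb were found by root mean square distance over the 4 within-replicate log2 differences, among 11347 genes with a mean normalized count of at least 100. They were Amn (distance 0.252), Cln3 (0.269), Pdgfra (0.277), 3110043O21Rik (0.396) and BC052040 (0.400). Since they were chosen for this pattern, their differences are a description. Cln3, a lysosomal membrane protein lost in juvenile Batten disease, had 1185 and 1279 normalized counts in WT, against 264.5 and 261.1 in C54Y and 262.3 and 287.7 in KO. Its libraries of a genotype were closer together than those of Gusb. Amn encodes amnionless, the membrane partner of cubilin, and had 223 and 452 normalized counts in WT, against 64.6 and 148 in C54Y and 42.6 and 107 in KO. Amn also stands in the endoderm marker list described below, and Pdgfra in the fibroblast list, most of which it did not follow between replicate numbers. 3110043O21Rik is the older symbol of the mouse C9orf72 gene.

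**Figure D4:**
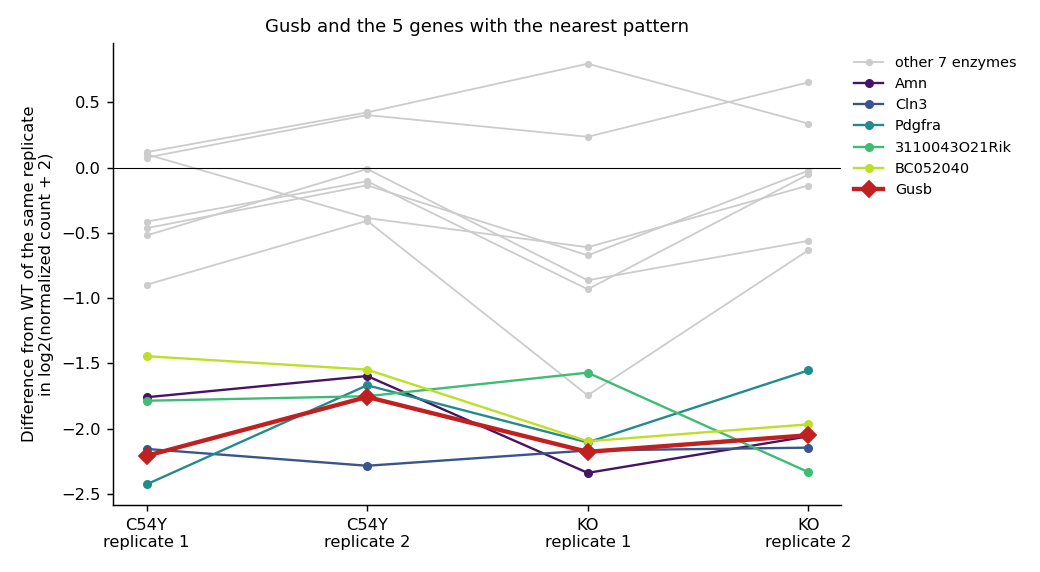
Difference from WT of the same replicate in log2(normalized count + 2), for C54Y and KO in replicates 1 and 2, of Gusb (red), the 5 genes closest to it (coloured) and the other 7 enzymes (grey). The 4 differences of Gusb lie between -2.21 and -1.76 and those of Cln3 between -2.28 and -2.14.

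The 6 tested genes nearest to Gusb on the chromosome were not called in either mutant when all libraries were fitted. They are Zbed5, Nupr1l and Vkorc1l1 on one side and Asl, Crcp and Tpst1 on the other. Over all tested genes, limma with the block called 16.3% in KO and 1.36% in C54Y. Of these 6 neighbours it called 0 in either mutant, which differs little from those shares for so few genes. Of the 6, 0 had an unadjusted p under 0.05, and edgeR and DESeq2 with the block called 0. Their log2 differences ran from -0.26 to 0.19 in KO and from -0.37 to 0.07 in C54Y. Without KO replicate 2, Vkorc1l1 (0.39, adjusted p = 0.0311) and Asl (-0.38, adjusted p = 0.0421) passed the threshold in KO.

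Of 15 other genes for degrading glycosaminoglycans or for processing the enzymes that do so, KO had 1 higher and 1 lower by limma with the block. Over all tested genes that fit called 8.9% higher and 7.41% lower in KO, and 0.962% and 0.399% in C54Y. Such shares are not given here for edgeR and DESeq2. Tmem2, a cell surface hyaluronidase, had 4399 and 2473 normalized counts in WT, against 4023 and 1938 in C54Y and 1906 and 1106 in KO. It fell by 1.18 ± 0.15 on the log2 scale in KO (adjusted p = 0.00177) and differed by -0.24 in C54Y (adjusted p = 0.606). Gm2a, the GM2 activator that presents ganglioside to β-hexosaminidase, rose by 0.68 ± 0.17 in KO (adjusted p = 0.0254), which was lost without WT replicate 2 (0.50, adjusted p = 0.3). In C54Y limma called 0 of the 15, while 1 had an unadjusted p under 0.05, and edgeR and DESeq2 with the block called 0. Gm2a (0.41, adjusted p = 0.361) passed in C54Y when only C54Y and WT were fitted (0.0294) or without KO replicate 1 (0.0206) or 2 (0.0374). The list's median was -0.20 in KO and -0.23 in C54Y.

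Of 45 tested genes that build or modify glycosaminoglycan chains, 2 rose and 6 fell in KO, and 0 rose and 1 fell in C54Y, by limma with the block. The list medians were 0.03 and 0.01. Of all tested genes, 8.9% rose and 7.41% fell in KO by that fit, and 0.962% and 0.399% in C54Y. DESeq2 with the block called 3 up and 6 down in KO and 1 up and 1 down in C54Y, and edgeR with the block called 1 up and 6 down in KO and 0 up and 1 down in C54Y. In C54Y, 2 had an unadjusted p under 0.05 in the upward direction by each of these tools. Hs3st1, a heparan sulfate 3-O-sulfotransferase, had 162 and 112 normalized counts in WT, against 28.6 and 33.8 in C54Y and 14.8 and 26.7 in KO. It fell by 2.64 ± 0.39 on the log2 scale in KO (adjusted p = 0.00336). In C54Y its log2 difference was -2.05 ± 0.39 (adjusted p = 0.0428), a call lost with a pseudocount of 0.5 (adjusted p = 0.0534), without WT replicate 1 (0.121), and without C54Y replicate 1 (0.0628) or 2 (0.143). Has2, a hyaluronan synthase, fell by 2.45 ± 0.40 in KO (adjusted p = 0.00515) and Hs6st2, a heparan sulfate 6-O-sulfotransferase, fell by 1.39 ± 0.24 (adjusted p = 0.00656). In C54Y, Hs6st2 differed by -0.81 (adjusted p = 0.174), which passed when only C54Y and WT were fitted (0.00884) or without either KO library (0.0118 each). Chst3, a chondroitin 6-O-sulfotransferase, rose by 2.00 ± 0.26 in KO (adjusted p = 0.00204), with 68.0 and 52.8 normalized counts in WT, against 147 and 147 in C54Y and 273 and 221 in KO. In C54Y its log2 difference was 1.27 ± 0.26 (adjusted p = 0.0587). It passed there with DESeq2 (1.28, adjusted p = 0.0111), when only C54Y and WT were fitted (0.00205), and without WT replicate 1 (0.0418), KO replicate 1 (0.00068) or KO replicate 2 (0.00176).

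Among 21 tested proteoglycan cores, the proteins that carry the chains, 2 rose and 3 fell in KO (2 and 4 by DESeq2) and 1 fell in C54Y by limma with the block. The limma shares over all tested genes were 8.9% up and 7.41% down in KO, and 0.399% down in C54Y. Srgn, serglycin, an intracellular proteoglycan of secretory granules, had 663 and 251 normalized counts in WT, against 67.3 and 41.6 in C54Y and 46.0 and 21.6 in KO. All 4 mutant libraries lay below WT, with a log2 difference of -3.61 ± 0.30 in KO (adjusted p = 0.000368) and of -2.90 ± 0.30 in C54Y (adjusted p = 0.00301). In KO, Ncan (neurocan) fell by 1.80 ± 0.26 (adjusted p = 0.00326) and Cspg5 (neuroglycan C) rose by 1.92 ± 0.28 (adjusted p = 0.00322). Gpc3, glypican 3, rose by 0.77 ± 0.18 in KO (adjusted p = 0.0212), which was lost without WT replicate 2 (0.47, adjusted p = 0.266). In C54Y, Gpc3 differed by 0.63 (adjusted p = 0.158) and Cspg5 by 0.96 (adjusted p = 0.169). When only C54Y and WT were fitted both passed (adjusted p = 0.0108 and 0.0388), as they did without either KO library, and Gpc3 also without WT replicate 1 (0.00908).

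Of 22 other lysosomal hydrolases and activators, 3 rose and 2 fell in KO, and 0 rose and 1 fell in C54Y, by limma with the block. The limma shares over all tested genes were 8.9% up and 7.41% down in KO, and 0.962% and 0.399% in C54Y. In KO edgeR with the block called 1 up and 4 down, and DESeq2 with the block 3 up and 4 down. In C54Y edgeR called 0 up and 1 down and DESeq2 1 up and 2 down, and 1 had an unadjusted p under 0.05 in the upward direction by each tool. Galc, galactosylceramidase, had 545 and 264 normalized counts in WT, against 152 and 61.1 in C54Y and 182 and 102 in KO. Its log2 difference was -1.95 ± 0.25 in C54Y (adjusted p = 0.00849, lost without C54Y replicate 2 at 0.0595) and -1.47 ± 0.25 in KO (adjusted p = 0.00638). Manba, β-mannosidase, went the other way in KO, up by 1.41 ± 0.20 (adjusted p = 0.0029), with 2793 and 1816 normalized counts in WT, against 3838 and 4197 in C54Y and 5664 and 6287 in KO. In C54Y, Manba differed by 0.83 ± 0.20 (adjusted p = 0.0951). It passed there with DESeq2 (0.81, adjusted p = 0.0126), when only C54Y and WT were fitted (0.0151), and without WT replicate 1 (6.58e-05), KO replicate 1 (0.016) or KO replicate 2 (0.0176). Arsa, arylsulfatase A, fell by 0.96 ± 0.23 in KO (adjusted p = 0.0221), which was lost without WT replicate 1 (adjusted p = 0.145). Dnase2a rose by 0.61 ± 0.17 (adjusted p = 0.0404), a call lost with edgeR (adjusted p = 0.0755) without either WT library (0.0548 and 0.412), without either C54Y library (0.0762 and 0.0857), with TMM factors (0.0712) and when only KO and WT were fitted (0.08).

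Of 6 genes for mannose 6-phosphate tagging and lysosomal sorting, 1 fell in KO: Sort1, sortilin, with a log2 difference of -0.72 ± 0.17 (adjusted p = 0.0248), which was lost without WT replicate 1 (adjusted p = 0.184). In C54Y limma with the block called 0 of 6, while 0 had an unadjusted p under 0.05, and edgeR and DESeq2 with the block called 0. Of the 4 MiT transcription factors, which include the known activators of lysosomal genes, 2 rose and 1 fell in KO. Of all tested genes, 8.9% rose and 7.41% fell in KO by limma with the block, and 0.962% and 0.399% in C54Y. Tfeb had 481 and 813 normalized counts in WT, against 627 and 1267 in C54Y and 1351 and 2394 in KO. It rose by 1.52 ± 0.16 in KO (adjusted p = 0.000975) and differed by 0.51 ± 0.16 in C54Y (adjusted p = 0.219). Mitf rose by 1.71 ± 0.30 in KO (adjusted p = 0.00693). Tfec fell by 2.75 ± 0.55 (adjusted p = 0.0118) from a WT level of 31.4 and 12.9 normalized counts to 3.48 and 0 in KO, so its fitted fold depends on the pseudocount. In C54Y limma called 0 of the 4, while 3 had an unadjusted p under 0.05, and edgeR and DESeq2 with the block called 0. When only C54Y and WT were fitted, these 3 passed: Tfeb (adjusted p = 0.0124), Mitf (1.11, adjusted p = 0.015) and Tfec (-2.40, adjusted p = 0.006). They also passed without either KO library.

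Among the cell type lists, most endoderm markers were called lower in both mutants, while few fibroblast and no macrophage markers were called. Over all tested genes, limma with the block called 7.41% lower and 8.9% higher in KO, and 0.399% and 0.962% in C54Y. Of 10 tested endoderm markers, 9 fell in KO and 8 in C54Y, among them Cubn (log2 difference -3.84 ± 0.25 in KO, adjusted p = 0.000195) and Dab2 (-2.79 ± 0.21, adjusted p = 0.000224). The call of Gata4 in C54Y was lost without C54Y replicate 1 (adjusted p = 0.1) or 2 (0.172) or WT replicate 2 (0.0527), and that of Lama1 in KO without WT replicate 1 (0.0563). Of the 12 listed, Ttr was at 0 in all 4 mutant libraries and Afp in 3 of them. Of 8 embryonic stem cell markers, 5 rose in KO and 1, Zfp42, in C54Y (2 by DESeq2). Zfp42 rose by 2.98 and Nanog by 1.46 in KO (limma adjusted p = 0.000187 and 0.00144). Esrrb rose there by 1.13 and Pou5f1 by 0.65 (adjusted p = 0.000784 and 0.00439). In C54Y, Zfp42 rose by 2.44 (adjusted p = 0.000877), while Esrrb differed by 0.53 (0.0711) and Nanog by 0.67 (0.117). Esrrb and Nanog passed in C54Y when only C54Y and WT were fitted (0.000387 and 0.0159), and Nanog with DESeq2 (0.0371). Of the 8, 1 lay below 0 in KO and 2 in C54Y. The 15 fibroblast markers, which feeders express, summed to 4721 to 7439 in replicate 1 and 21049 to 24048 in replicate 2, and Pdgfra and Mmp2 were the 2 of 14 tested that fell in KO, the call of Mmp2 being lost without WT replicate 1 (adjusted p = 0.0768). In C54Y, Pdgfra was the 1 called (-2.05 ± 0.31, adjusted p = 0.0164). Pdgfra was not among the 11 of 14 tested fibroblast markers called higher in replicate 2 than in replicate 1. In WT it had 272 and 157 normalized counts in replicates 1 and 2, against 1500 and 5855 for Col1a1. Which cells its reads came from was not tested. The part of these cell types in the result for Gusb was not tested. Of 6 tested macrophage markers, limma with the block called 0 in either mutant, while 1 in KO and 0 in C54Y had an unadjusted p under 0.05, and edgeR and DESeq2 with the block called 0. The 8 listed macrophage markers, which add Ptprc and Aif1 to the 6 tested, summed to 774 and 983 in WT, with C54Y at 540 and 1061 and KO at 460 and 1124. Ptprc, which marks leukocytes in general, was at 0 in 3 of the libraries, and Emr1, the F4/80 antigen of macrophages, in KO replicate 1.

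**Figure D5:**
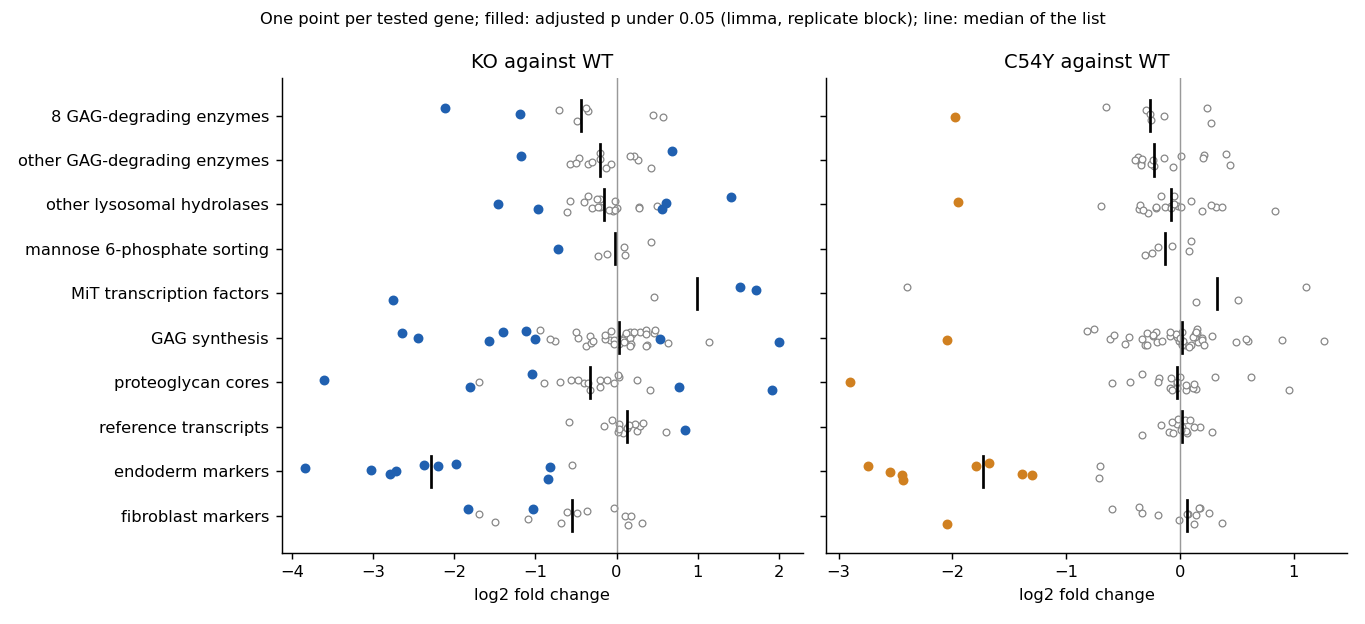
Log2 fold change from WT in KO and C54Y of each tested gene of the 8 enzymes, the pathway lists, the reference transcripts and the endoderm and fibroblast markers, 1 point per gene, filled where called by limma with the replicate block; lines are list medians. Gusb, at -2.11 and -1.98, is the lowest of the 8 enzymes and of the 15 other degrading genes in both mutants, and the endoderm markers have medians of -2.29 in KO and -1.73 in C54Y.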

How the data were processed

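RNA sequencing libraries of mouse embryonic stem cells were compared, 2 each of WT, C54Y and KO. The values the authors deposited are normalized counts (unit: signal). Per the submitters' processing notes, the tools were TopHat2 2.1.0, HTSeq and DESeq2, beside CASAVA and Trimmomatic, with mouse build mm9. Annotation and strand setting are not given in the sources used here. Dividing each library by its smallest step gave whole reads for 100% of values (tolerance 1e-06). The recovered depth was 31774656 to 46772996 reads per library.

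Genotypes were compared in R 4.3.3 on log2(normalized count + 2) by limma 3.58.1, with trend and robust settings and Benjamini-Hochberg adjustment over 15287 genes and a threshold of 0.05. The planned model held the genotype alone. Replicate number as a block was the second planned fit, and deviations of same-numbered libraries correlated at 0.907 between WT and C54Y, 0.869 between WT and KO and 0.895 between the mutants, so the numbers pair the samples. The pairing is read from these data, as no label says what a number stands for. edgeR 4.0.16 and DESeq2 1.42.0 on the recovered reads, other pseudocounts, TMM factors, no filter on low values, and leaving out each library were alternatives. The fits were tested on simulated reads with the same spread setting for every gene and the same replicate differences in every genotype. The pairing was thus built in, so the simulation cannot show whether the block suits the real libraries. Of 50 genes raised 4-fold and 50 lowered to 0.25 in KO, limma without the block called 0 and 0. With the block it called 50 and 49, and 6 of 15087 unchanged genes. Exon lengths and overlaps come from GENCODE M21 and promoters from RefSeq, both GRCm38, not the build of the table.

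The 8 members and all lists were chosen with earlier results of these data known. The text names all members, Thap1, up to 4 called genes per list by smallest p, the 3 tested genes on each side of Gusb, the tested genes overlapping a member, and the 5 genes closest to Gusb. Gm26527 was named after its overlap was seen. Psap, Xylt2 and further called list genes beyond that rule are counted and not named with values.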

Additional observations from a re-analysis of the deposited data

How the results depend on the processing

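With the replicate block the fold change of Gusb does not change but its call does. In KO, Gusb was -2.11 without the block or with DESeq2 (no block) and -2.11 with the block, also when only the 2 groups were fitted. With the block it was -2.21 by edgeR, -2.12 by DESeq2 and with a pseudocount of 0.5, -2.09 with a pseudocount of 8 and -2.20 with TMM factors. In C54Y it was -1.98 with the block and in the 2-group fit, -2.01 by edgeR, -1.99 by DESeq2, -1.99 with a pseudocount of 0.5, -1.96 with 8 and -2.00 with TMM factors. Leaving out each library, with and without the block, gave -2.41 to -1.81 in KO, -2.44 to -1.52 in C54Y and -0.59 to 0.33 between the mutants, where the sign turned. In the fits with the block, those that leave out a library included, the adjusted p of Gusb reached at most 0.000585 in KO and 0.00276 in C54Y. Members called in KO were 0 in the planned fit, 2 in every fit with the block and all libraries, 1 by DESeq2 without the block and 0 to 5 when a library was left out. In C54Y they were 0 in the planned fit, 1 with the block, 2 in the 2-group fit and 0 to 2 when a library was left out. Between the mutants they were 0, and 0 to 1 when a library was left out; between replicate numbers they were 4 with the block, 3 by edgeR or with TMM factors, and 2 to 4 when a library was left out. The pseudocounts, no filter, TMM factors and edgeR gave 0 members without the block in each comparison between genotypes. Leave-one-out values that changed sign ran, in C54Y, from -0.89 to 0.37 for Idua, -0.80 to 1.34 for Ids, -0.50 to 0.22 for Sgsh, -0.016 to 0.50 for Glb1 and -0.44 to 0.72 for Dgkq, and in KO from -1.12 to 0.14 for Idua, -0.73 to 1.87 for Ids, -0.37 to 0.78 for Dgkq and -0.042 to 1.35 for Pou5f1. These ranges pool fits with and without the block. With the block alone, the sign turned in C54Y for Idua (-0.56 to 0.04) and Sgsh (-0.50 to 0.22). It held for Ids (0.005 to 0.54 in C54Y, 0.26 to 0.87 in KO) and Dgkq (0.12 to 0.16 and 0.17 to 0.25). With the block it also held for Glb1 in C54Y (0.05 to 0.43) and Idua in KO (-0.85 to -0.13). The cause was not tested. TMM factors moved the median of all genes between replicate numbers from 0.01 to -0.09. Sgsh and Arsb have the fewest reads of the 8, at 55 to 163 per library for Sgsh and 42 to 129 for Arsb.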

Other observations

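Gusb is often used as an internal reference transcript, and 16 other such genes were listed beside it. In KO, 1 of the 16 rose by limma with the replicate block (2 by DESeq2) and 0 fell, and the list's median log2 difference was 0.13. Of all tested genes, 8.9% rose and 7.41% fell in KO by limma with the block, and 0.962% and 0.399% in C54Y. The gene that rose was Pgk1, a glycolytic enzyme gene, by 0.85 ± 0.12 (adjusted p = 0.00334). In C54Y limma called 0 of 16, while 0 had an unadjusted p under 0.05, and edgeR and DESeq2 with the block called 0. Pgk1 passed in C54Y when only C54Y and WT were fitted (0.28, adjusted p = 0.0341) or without KO replicate 1 (0.0253) or 2 (0.0388). The differences of the 16 in C54Y ran from -0.34 to 0.28. Gusb, at -2.11 in KO and -1.98 in C54Y, lay below the lowest of the 16, which was -0.59 in KO and -0.34 in C54Y. Between replicate numbers, 9 of the 16 rose and 2 fell, against 32% and 32.8% of all tested genes. The 16 ran widely, from -3.63 to 1.56, with a median of 0.66, and Gusb rose by 0.66.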
